A study of Mus musculus with 11 samples.

Results

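A set of 8 genes that sort thermogenic fat cells by origin were followed through 11 RNA-seq libraries of im-scWATs, mouse preadipocytes of the inguinal subcutaneous white depot that had been immortalized with SV40 large T antigen. The genes were taken by symbol, and all 8 were among the 29955 symbols of the expression tables. They comprised 4 markers used for beige adipocytes (Tnfrsf9, Tmem26, Tbx1 and Cited1), 3 used for classical brown adipocytes (Epsti1, Zic1 and Lhx8) and Tbx15, a positional gene. The cells were collected at confluence on day 0 and after differentiation with indomethacin, dexamethasone, IBMX, insulin and T3 on days 4 and 8, either with 0.5 µM rosiglitazone (ROS, a ligand of PPARγ that favors the beige program) or without it from start to end. Day 0 had 2 libraries, filed under the ROS and the no-ROS arm although ROS was added only with the induction medium, and they were used as 1 group (n = 2). Days 4 and 8 had 1 library for each arm. For the day 8 ROS cultures the sample notes state that ROS was withdrawn on day 7, whereas the methods of the study describe it as kept.

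A further 5 libraries came from im-scWATs infected with retroviruses for an shRNA against mouse Jmjd1a and for human JMJD1A (hJMJD1A), a demethylase of H3K9me2, all at day 8 after differentiation with ROS. They carried the wild-type protein (WT A and WT B, n = 2), S265A, in which the serine phosphorylated by protein kinase A is lost, S265D, which mimics phosphorylation, or S265D with H1120Y (S265D-H1120Y), in which the catalytic site is lost too, with 1 library for each mutant. The hJMJD1A cDNA was driven by the viral LTR, so its level was not under the control of the gene's own promoter. Where a group had 1 library, its values have no replicate check.

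Beige adipocytes arise within white depots, whereas classical brown adipocytes form in dedicated depots from a dermomyotomal lineage, and both burn fuel through UCP1. The genes followed here are used to tell the cells apart rather than to make heat. Tnfrsf9 (CD137, 4-1BB) is a receptor of the TNF receptor superfamily and Tmem26 is a transmembrane protein, and both were introduced as surface markers of beige precursors. Tbx1 is a T-box transcription factor and Cited1 is a CBP/p300-binding transcriptional coregulator. Epsti1 (an interferon-responsive gene), Zic1 (a zinc-finger factor) and Lhx8 (a LIM-homeobox factor) mark the classical brown lineage, and Tbx15 is a T-box factor found in brown and subcutaneous white fat.

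Values are FPKM of the sense strand, the authors' unit, the read density over the exons scaled to transcript length and library size. Library depth was 3.10 to 5.29 Gb of mapped sequence. The most frequent low number of mapped bases over a gene was 198, which was taken as 1 fragment (1 read pair), and 3 fragments were taken as the floor of detection. The day 0 libraries were close to each other, with 1.51% of 13801 genes apart by over 2-fold, and WT A and WT B were not, with 22.4% of 14155 genes apart by over 2-fold. Summed FPKM of 8 adipocyte markers was 284.8 to 286.6 at day 0 and 10220 to 36690 at days 4 and 8. Most of this sum was Fabp4, with 247.9 and 248.7 FPKM at day 0 and 74.7% to 86.2% of the sum at days 4 and 8. Of 6 macrophage markers Ptprc and Emr1 were listed at 0 throughout, and the list summed to 1.82 to 22.7 FPKM, mostly Cd68 and Cd14. Of 6 skeletal muscle markers Myod1, Myog, Myh4 and Ckm were listed at 0, and the list summed to 0.224 to 19.3, nearly all Acta1. Lymphocyte markers summed to at most 0.207 and endothelial ones to at most 4.05. The targeted Jmjd1a gene (Kdm3a) had FPKM of 13.0 to 28.5 in the transduced libraries and 15.1 to 23.2 in the others, which checks no label because reads of the introduced human cDNA were not separated from mouse ones.

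All 8 genes are protein-coding and were measured on 1 representative transcript of the UCSC set in mm9. Tnfrsf9 lies on chromosome 4 from 150302108 to 150320211, Tmem26 on chromosome 10 from 68186494 to 68245402, Tbx1 on chromosome 16 from 18581806 to 18587062 and Cited1 on chromosome X from 99442776 to 99447108. Epsti1 lies on chromosome 14 from 78304046 to 78402463, Zic1 on chromosome 9 from 91255183 to 91260637, and both Lhx8 (153969258 to 153993524) and Tbx15 (99057683 to 99158183) on chromosome 3. Of the 8, only Zic1 overlapped another gene of the annotation, Zic4 on the opposite strand.

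Promoter sequences from RefSeq (GRCm38.p6) were at hand for 7 of the 8 genes, all but Tbx15, each with 250 bases before and 50 after a start site. Shown are the first entry of the pair that fell with differentiation (Tnfrsf9 and Tmem26), of the pair that rose (Tbx1 and Cited1) and of the gene with no reads (Zic1), 5′ to 3′ on the gene's strand with each CpG in capitals.
Tnfrsf9 (chr4:150919905-150920204, + strand): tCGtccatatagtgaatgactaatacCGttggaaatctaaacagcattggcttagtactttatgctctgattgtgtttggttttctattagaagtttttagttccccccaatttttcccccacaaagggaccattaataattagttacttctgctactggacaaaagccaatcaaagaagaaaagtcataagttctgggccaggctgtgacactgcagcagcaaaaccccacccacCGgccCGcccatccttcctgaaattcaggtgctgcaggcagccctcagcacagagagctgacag
Tmem26 (chr10:68723496-68723795, + strand): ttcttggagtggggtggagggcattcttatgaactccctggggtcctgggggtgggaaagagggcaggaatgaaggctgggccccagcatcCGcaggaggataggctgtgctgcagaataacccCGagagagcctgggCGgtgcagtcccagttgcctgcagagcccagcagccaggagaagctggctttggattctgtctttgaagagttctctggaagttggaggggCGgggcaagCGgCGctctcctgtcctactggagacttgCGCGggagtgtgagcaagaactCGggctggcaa
Tbx1 (chr16:18588850-18589149, - strand): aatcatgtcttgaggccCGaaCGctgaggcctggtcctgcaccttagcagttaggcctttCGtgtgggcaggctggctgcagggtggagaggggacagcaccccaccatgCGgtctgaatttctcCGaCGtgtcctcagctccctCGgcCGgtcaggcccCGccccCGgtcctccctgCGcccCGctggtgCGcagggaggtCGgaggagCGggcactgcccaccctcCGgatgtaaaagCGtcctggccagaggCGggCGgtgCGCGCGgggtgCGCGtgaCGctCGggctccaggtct
Cited1 (chrX:102252132-102252431, - strand): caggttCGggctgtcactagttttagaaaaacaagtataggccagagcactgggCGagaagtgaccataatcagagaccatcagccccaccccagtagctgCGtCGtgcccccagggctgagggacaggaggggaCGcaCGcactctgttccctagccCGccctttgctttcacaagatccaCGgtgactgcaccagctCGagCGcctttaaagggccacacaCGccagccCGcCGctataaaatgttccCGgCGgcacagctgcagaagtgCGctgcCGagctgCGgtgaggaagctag
Zic1 (chr9:91365719-91366018, - strand): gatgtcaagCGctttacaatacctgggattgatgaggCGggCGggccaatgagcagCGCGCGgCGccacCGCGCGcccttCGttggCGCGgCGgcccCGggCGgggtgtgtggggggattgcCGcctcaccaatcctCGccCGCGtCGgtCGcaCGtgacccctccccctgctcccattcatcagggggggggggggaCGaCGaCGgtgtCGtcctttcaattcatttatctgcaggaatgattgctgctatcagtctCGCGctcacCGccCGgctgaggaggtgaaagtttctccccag

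The falling and the rising pair differed in CpG content. Tnfrsf9 had 4 CpG in its 300 bases and Tmem26 had 9, against 26 for Tbx1 and 18 for Cited1, where the median of 32851 RefSeq promoters was 7 and the upper quartile 20. Zic1, which had no mapped base in any library, had 31 CpG, more than 89.4% of promoters, and Epsti1, also near 0, had 2. Lhx8, which was expressed, had 4. Among these first entries the highest CpG counts were those of the rising genes and of a gene at 0, which describes a few genes grouped by the same data. Further entries of the same genes, from other start sites, had 6 CpG for Tnfrsf9, 16 for Tbx1, and 14 and 32 for Cited1, and the start that these cells use was not measured. The second Tnfrsf9 entry is the one that belongs, by its spacing, to the transcript measured. For Tbx1 the spacing of the entries is not that of its transcripts, so the entry shown was not matched to the transcript measured. The TATA box TATAAA (either strand) was in the first and second entry of Cited1 and in no other of the 11 entries, and 13.6% of all promoters hold it. The nuclear receptor half-site AGGTCA (either strand) was in the Epsti1 entry, the second entry of Tnfrsf9 and the third of Cited1, and in 16.3% of promoters. A direct repeat of that half-site with 1 base between the copies, the kind that PPARγ with RXR can bind, was in none of the 11 and in 0.0396% of promoters. The GC box GGGCGG (either strand) was in the first entries of Tnfrsf9, Tmem26, Tbx1, Cited1 and Zic1, and in 35.7% of promoters.

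**Figure D1:**
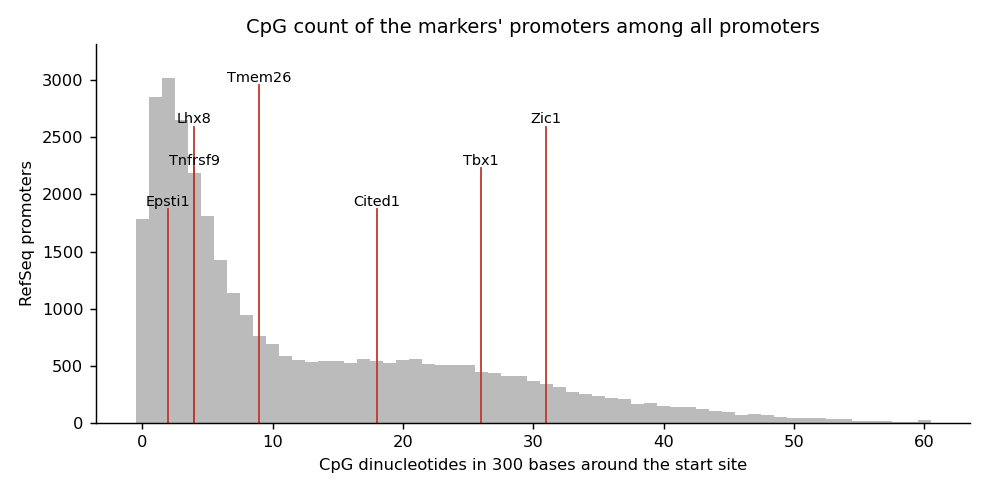
Number of CpG dinucleotides in the 300 bases around the start site (x axis) for all 32851 RefSeq promoters of the mouse (gray bars, number of promoters; 60 or more pooled in the last bar), with the first entry of 7 markers as red lines. Tbx1 (26) and Zic1 (31) lie above the upper quartile of 20, and Epsti1 (2), Lhx8 (4) and Tnfrsf9 (4) below the median of 7.

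Against day 0, Tnfrsf9 and Tmem26 fell and Tbx1 and Cited1 rose at both days in both arms, so that the 4 beige markers split into 2 opposite pairs. Of the classical brown markers, Lhx8 rose by day 4 and was back near its starting level at day 8, and Epsti1 and Zic1 stayed at or below 1 fragment. Tbx15 was lower at day 8. With limma, which adjusts over all 16400 genes tested, 2 of the 8 genes were higher and 3 lower at day 8 with ROS, where 21.8% of all genes were called higher and 25.5% lower. The counts were the same at day 8 without ROS (background 20.6% and 14.1%). At day 4 they were 3 higher and 2 lower, with ROS (17.1% and 17.6%) and without it (15.2% and 13.9%). A simple 2-fold rule on FPKM picked 5 of the 8 genes in each of these comparisons, against backgrounds of 20.4% higher and 24.3% lower at day 8 with ROS, 21.5% and 13.6% at day 8 without it, 18.0% and 17.7% at day 4 with ROS and 18.7% and 14.6% without it. Epsti1 and Zic1 did not pass the expression minimum of 0.1 FPKM and were in neither test. The share of genes that moved was thus high throughout the transcriptome, and the counts of the 8 genes are a description beside it. The 4 comparisons share the same day 0 libraries.

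These calls depend on where the error comes from. The 4 differentiated libraries had no replicates, so limma took the spread from the day 0 pair alone (1 residual degree of freedom) and assumed that the single libraries vary like it. When the WT pair also contributed, 17 of the 20 calls on these genes were lost, and those of Tbx1 at day 8 in both arms (adjusted p = 0.0257 with ROS and 0.0368 without) and of Tmem26 at day 8 with ROS (adjusted p = 0.0309) were kept. When either day 0 library was left out the spread came from the WT pair only and none of the 20 calls was kept. Nothing in the sample notes says that replicates came from separate cultures, so p-values measure the spread between these libraries, which may be technical. In bulk cultures, fewer cells of a type and less RNA per cell cannot be told apart.

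**Figure D2:**
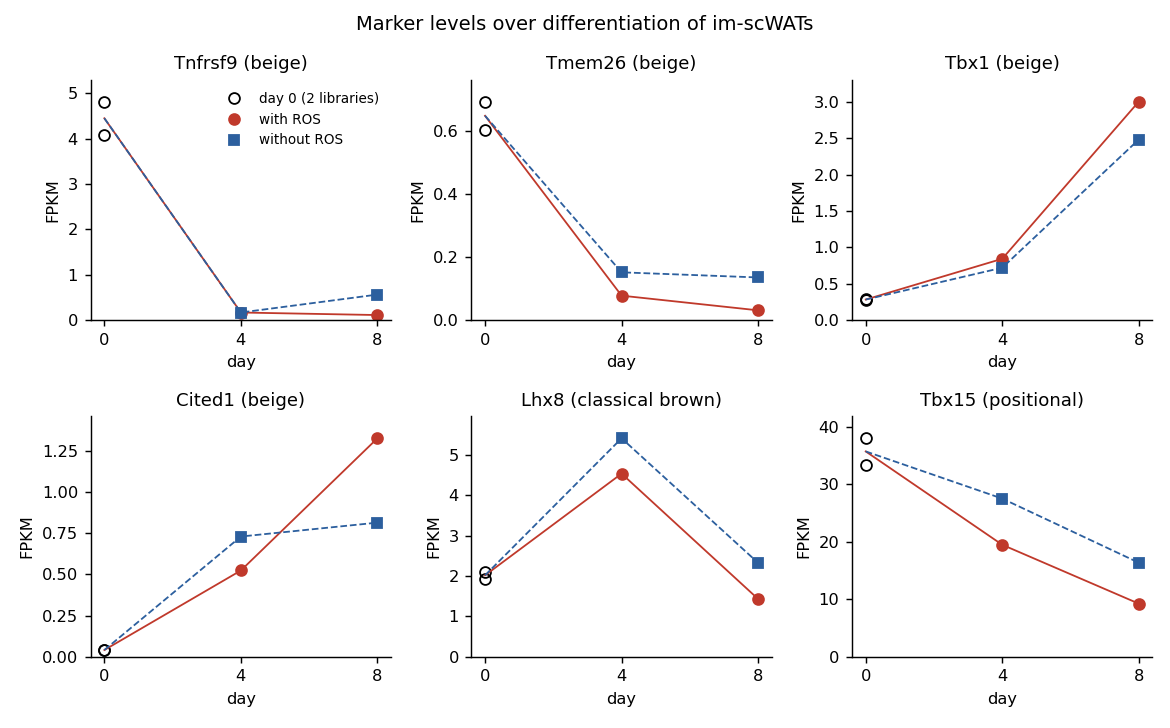
FPKM (y axis, linear from 0) of 6 markers by day of differentiation (x axis), 1 point for each library. Open circles are the 2 day 0 libraries, red circles and solid lines cultures with ROS, blue squares and dashed lines cultures without ROS, and lines start at the day 0 mean. Tnfrsf9 dropped from over 4 to 0.167 by day 4 in both arms, whereas Tbx1 climbed to 3.01 and 2.49 at day 8.

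The receptor gene Tnfrsf9 was the most sharply reduced. Its FPKM was 4.08 and 4.82 in the day 0 libraries (4.45 ± 0.520, SD, n = 2), 0.167 at day 4 both with and without ROS, and 0.111 with and 0.563 without ROS at day 8. Every differentiated library lay below both day 0 libraries, as 30.8% of all genes did. The day 4 values rest on about 9 and 6 fragments, against 203 and 239 at day 0. The drop to day 4 with ROS was 26.6-fold, and to day 8 with ROS 40.0-fold, with a log2 fold change of -4.42 ± 0.16 (SE, adjusted p = 0.0165). Without ROS at day 8 it was 7.91-fold, with a log2 fold change of -2.77 ± 0.16 (adjusted p = 0.028). Tnfsf9, which encodes the ligand of this receptor, was measured at 3.40 and 2.77 FPKM on day 0, fell with ROS to 0.447 by day 4 and 0.444 by day 8, and had 1.12 and then 1.38 without ROS, where it did not pass the test. Ligand and receptor transcripts were thus both highest in preadipocytes.

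Within the TNF receptor superfamily, 17 of 20 listed genes, Tnfrsf9 included, were tested. At day 8 with ROS 6 were called lower, among them Tnfrsf9 itself, and 3 higher. Over all genes 25.5% were called lower and 21.8% higher. Tnfrsf12a, the receptor for TWEAK, was 4.67-fold lower than at day 0 (181 to 38.8 FPKM) and Tnfrsf10b, a TRAIL receptor, 4.32-fold lower (22.1 to 5.12). Ngfr, the low-affinity neurotrophin receptor, went the other way, from 0.150 at day 0 to 2.63 with ROS and 30.4 without. The direction of Tnfrsf9 was therefore not that of all receptors of its family.

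Tmem26 also fell from day 0, at a lower level than Tnfrsf9. Over the 9 differentiated libraries Pearson r between Tmem26 and Tnfrsf9 was 0.17 and Spearman rho -0.13, on log2(FPKM + 0.1). The FPKM of Tmem26 was 0.694 and 0.604 at day 0, 0.0776 with and 0.152 without ROS at day 4, and 0.0310 with and 0.135 without ROS at day 8. All 4 differentiated libraries lay below day 0, as for 30.8% of all genes. Within each day the ROS culture had the lower value, as for 45.9% of genes, on about 10 against 12 fragments at day 4. By fragments, day 4 without ROS was 1.95 times day 4 with ROS, with an exact 95% interval of 0.774 to 5.05. The lowest value, at day 8 with ROS, was about 4 fragments, with a 95% Poisson interval of 0.00841 to 0.0790 FPKM that covers counting error only. The log2 fold change from day 0 was -2.51 ± 0.12 at day 8 with ROS (SE, adjusted p = 0.0183) and -1.67 ± 0.12 without (adjusted p = 0.0317). At no time did Tmem26 reach 1 FPKM.

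Tbx1 rose stepwise. It had an FPKM of 0.288 and 0.277 at day 0, 0.844 with and 0.721 without ROS at day 4, and 3.01 with and 2.49 without ROS at day 8. All 4 differentiated libraries lay above day 0, as for 31.0% of all genes, and the order of the days was the same in both arms. The change from day 0 to day 8 was 10.6-fold with ROS and 8.79-fold without, with log2 fold changes of 3.02 ± 0.07 (SE, adjusted p = 0.0164) and 2.76 ± 0.07 (adjusted p = 0.0266). From day 4 to day 8 the ratio was 3.56 with and 3.45 without ROS. Differentiation in either medium, with or without ROS, came with a rise of Tbx1, and the values of the arms at day 8 had overlapping counting intervals (2.52 to 3.55 and 2.02 to 3.03 FPKM).

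Among 16 T-box genes, Tbx1 and Tbx15 included, 7 were tested. At day 8 with ROS 2 were called higher, among them Tbx1, and 4 lower, among them Tbx15. Over all genes 21.8% were called higher and 25.5% lower. Tbx18, a factor of mesenchymal cells, was 2.61-fold lower than at day 0 (3.90 to 1.49 FPKM) by the 2-fold rule. Tbx6, a factor of paraxial mesoderm, was 15.4-fold higher (0.0931 to 1.44 FPKM). The Tbx6 fold is poorly bounded because its day 0 mean is below the expression minimum of 0.1 FPKM.

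Cited1 came up from the floor. In the day 0 libraries it had 1 fragment each (FPKM 0.0385 and 0.0438, where 3 fragments would give 0.131). At day 4 it had 0.524 with and 0.730 without ROS, and at day 8 it had 1.33 with and 0.814 without. All differentiated libraries were above day 0, as for 31.0% of all genes. The fold is poorly bounded because so few fragments stand at its base. By fragments, day 8 with ROS was 30.2 times day 0 with an exact 95% interval of 7.73 to 260, and day 8 without ROS was 18.2 times day 0 (4.32 to 162). The fitted log2 fold changes of 3.34 ± 0.07 (SE, adjusted p = 0.0164) and 2.70 ± 0.07 (adjusted p = 0.0266) depend on the pseudocount of 0.1. Of its 2 paralogs, Cited2, the ubiquitous member, was at 52.0 FPKM in both day 0 libraries and at 28.2 to 50.4 afterwards, and Cited4 was listed at 0 on day 0 and reached 2.38 at day 4 without ROS.

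Epsti1, the first of the classical brown markers, was not detectable above the floor. It had no mapped base in 7 libraries and 1 fragment in each of day 8 without ROS, WT A, WT B and S265D-H1120Y, giving 0.0231 to 0.0291 FPKM, where 3 fragments would give 0.0600 to 0.102. The 20 other interferon-responsive genes on the list were all tested in the same libraries. Their summed FPKM was 502.3 and 616.3 at day 0, 1387 at day 8 with ROS and 3292 at day 8 without ROS, and 16 of the 20 were over 2-fold lower with than without ROS at day 8 (all genes, 15.2%). Epsti1 thus stayed at 0 or 1 fragment in libraries in which other interferon-responsive transcripts were measured.

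Zic1 had no mapped base on either strand in any of the 11 libraries. A count of 0 allows up to 3 fragments, which is 0.0335 to 0.0571 FPKM depending on depth. Of its relatives, Zic4 and Zic5 were listed at 0 in all libraries and Zic2 was at most at 0.0263. The brown-lineage regulators Myf5 and Pax7 were also listed at 0 in all libraries. Other genes used as brown-lineage markers were present: En1 had 4.15 and 4.87 FPKM at day 0 and 1.87 to 2.78 at days 4 and 8, and Pax3 had 1.36 and 1.65 and then 0.510 to 0.792. The list of brown markers was therefore not silent as a whole.

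Lhx8 was the 1 classical brown marker of the 3 with reads above the floor, in all libraries but WT A. It had an FPKM of 2.11 and 1.93 at day 0 (2.02 ± 0.124, SD, n = 2), 4.54 with and 5.41 without ROS at day 4, and 1.43 with and 2.33 without ROS at day 8. The day 4 libraries were above both day 0 libraries and the day 8 libraries lay on either side of them. The rise to day 4 was 2.25-fold with ROS (log2 fold change 1.13 ± 0.10, SE, adjusted p = 0.0335) and 2.68-fold without (1.38 ± 0.10, adjusted p = 0.0329). At day 8 the log2 differences from day 0, -0.47 with ROS (adjusted p = 0.0717) and 0.20 without (adjusted p = 0.238), did not pass the test. With genes below 1 FPKM left out, the first of these passed (adjusted p = 0.048). Its relative Lhx6, with which it acts in the developing forebrain, was at 2.64 FPKM at day 0. At day 8 Lhx6 had 0.0405 with ROS, 65.2-fold lower, and 0.162 without ROS, 16.3-fold lower. The first of these folds is poorly bounded because its lower value is so small. Lhx2 was 5.05-fold higher at day 8 with ROS (0.308 to 1.55 FPKM).

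Tbx15 was the most abundant of the 8 by far. Its FPKM was 38.0 and 33.4 at day 0 (35.7 ± 3.24, SD, n = 2), 19.5 with and 27.5 without ROS at day 4, and 9.24 with and 16.4 without ROS at day 8. It was above 77.5% of all symbols in its lowest library and above 92.8% in its highest. All differentiated libraries lay below day 0, as for 30.8% of all genes, and the day 8 libraries lay below those of day 4. Within each day the ROS culture was lower, as for 45.9% of genes. The fall to day 8 was 3.86-fold with ROS (log2 fold change -1.94 ± 0.13, SE, adjusted p = 0.0218) and 2.18-fold without (-1.12 ± 0.13, adjusted p = 0.0445). At day 4 the differences of -0.87 and -0.37 did not pass (adjusted p = 0.057 and 0.165). The first of these passed with a pseudocount of 1 (adjusted p = 0.0487), with rescaled FPKM (adjusted p = 0.0456) and without genes below 1 FPKM (adjusted p = 0.0254).

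**Figure D3:**
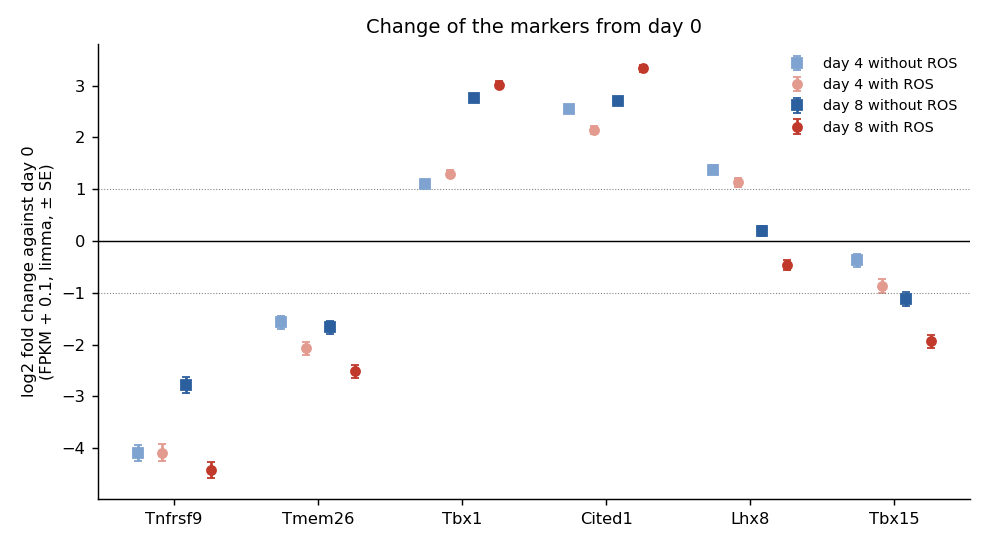
Log2 fold change against day 0 on the log2(FPKM + 0.1) scale (y axis) for 6 markers (x axis), with SE from limma as error bars. Circles are cultures with ROS and squares without, pale at day 4 and dark at day 8, and dotted lines mark 2-fold. Tnfrsf9 and Tmem26 lie below -1 and Tbx1 and Cited1 above 1 in all 4 comparisons, while Lhx8 returns to between -0.47 and 0.20 at day 8.

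The adipocyte and thermogenic programs in the same libraries give the setting. All 8 adipocyte markers were called higher than day 0 in each of the 4 comparisons. Of 12 thermogenic genes, 11 were higher at day 8 with ROS and 9 without, such as Cox8b, a cytochrome oxidase subunit, which was listed at 0 at day 0 and had 117 FPKM with and 40.3 without ROS. Of 10 other beige markers, 9 were tested, and 2 were higher and 3 lower at day 8 with ROS. Over all genes 21.8% were called higher and 25.5% lower in that comparison. Slc36a2, a proton-coupled amino acid transporter, went from at most 0.00877 FPKM at day 0 to 66.0 with and 32.3 without ROS, and Shox2, a homeobox gene, was 3.03-fold lower with ROS. Of 12 other brown markers, 9 were tested, and 5 were higher and 3 lower, with Pdk4, a kinase that restrains pyruvate oxidation, 20.6-fold higher. Pdk4 had a mean of 7.03 FPKM at day 0, and at day 8 it had 144.8 with and 10.4 without ROS. Both directions were seen in both lists of lineage markers, as among the 8 genes here and among all genes. The counts are a description beside the shares over all genes. Of 6 preadipocyte markers, 4 were lower than the day 0 mean and 1 higher (Pdgfra) at day 8 with ROS, and 3 were lower (Cd34, Dlk1 and Thy1) and 3 higher without it. Their sum, most of which is Ly6a, was 483.5 and 548.9 FPKM at day 0, 131.4 at day 8 with ROS and 554.7 without it. Of 6 smooth muscle and pericyte markers, 4 were lower and 2 higher at day 8 in both arms, with Acta2 at 131 and 140 FPKM at day 0 and 2.52 to 12.6 at days 4 and 8, and Myh11 at most at 0.0226 at day 0 and 0.952 to 1.80 afterwards. The neural marker Nes was at 9.55 and 8.82 FPKM at day 0 and at most at 1.10 at days 4 and 8, with Sox2 and Olig2 listed at 0. The part of these marker lists in the fall of Tnfrsf9 and Tmem26 was not tested.

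The arms with and without ROS, with 1 library each, were then compared within a day. At day 8, 2 of the 8 genes were past 2-fold, both lower with ROS (15.2% of genes were lower and 4.00% higher). Tnfrsf9 was 5.06-fold lower (0.111 against 0.563 FPKM, about 6 against 26 fragments) and Tmem26 4.37-fold lower (0.0310 against 0.135, about 4 against 15 fragments). Exact 95% intervals of these ratios from the fragments were 2.04 to 15.0 and 1.40 to 18.1. Of 6 preadipocyte markers, 5 passed the expression minimum at day 8. With ROS 4 of these were over 2-fold lower, such as Thy1 (4.93-fold), Ly6a (4.60-fold) and Cd34 (4.37-fold), and 0 higher. The part of such genes in the values of Tnfrsf9 and Tmem26 was not tested. Tbx15 was 1.77-fold lower and Lhx8 1.62-fold lower with ROS, and Cited1 (1.63-fold) and Tbx1 (1.21-fold) were higher. At day 4 none of the 8 was past 2-fold (2.20% of genes were higher and 4.51% lower). None passed limma, which called 0 of 16400 genes at day 8 (5011 at an unadjusted p under 0.05) and 0 at day 4 (1862), the adjusted p of the 6 tested genes lying between 0.107 and 0.196 at day 8. The median of all genes tested was itself shifted by -0.20 (log2) at day 8, and libraries without ROS had the largest scaling shifts, of 0.13 at day 8 and 0.10 at day 4. Relative to the median of genes at 1 FPKM or more in every library (-0.17), the log2 difference between the arms was 0.44 for Tbx1 and -1.48 for Tnfrsf9.

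Rosiglitazone cultures had the lower value at both days for Tmem26, Lhx8 and Tbx15, as 45.9% of genes did, and the higher value at both days for Tbx1, as 18.5% did. The thermogenic genes behaved otherwise at day 8, where 10 of 12 were over 2-fold higher with ROS, among them Ucp1 (9.90 against 0.0970 FPKM, 102-fold). Of the beige markers here, Tbx1 and Cited1 were within 2-fold in measured FPKM between arms that were 102-fold apart in Ucp1. For Cited1 the exact 95% interval from the fragments was 0.899 to 3.18, which reaches past 2-fold. The Ucp1 ratio has a denominator below the expression minimum of 0.1 FPKM, and no interval was computed for it.

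The transduced cultures were then compared by the form of hJMJD1A that they carried. For 3 of the markers, the 2 WT libraries were more than 2-fold apart, so the WT mean is a poor reference. Tnfrsf9 had 0.0760 FPKM in WT A and 0.832 in WT B, Lhx8 had 0.0545 and 1.59, and Cited1 had 2.39 and 0.0981. By fragments, WT B was 11.1 times WT A for Tnfrsf9 (exact 95% interval 3.48 to 56.5) and 29.2 times for Lhx8 (7.74 to 247), and WT A was 21.8 times WT B for Cited1 (5.69 to 186). Tbx15 had 8.41 and 13.5. Of all genes, 16.4% were over 2-fold higher in WT B than in WT A and 10.8% lower. Of 12 thermogenic genes, 11 were lower in WT B than in WT A. Of 8 adipocyte markers, 5 were lower in WT B (Adipoq, Plin1, Lipe, Cebpa and Cidec) and 3 higher (Fabp4, Pparg and Lpl). Of 6 preadipocyte markers, 5 were higher in WT B, such as Ly6a with 116 FPKM in WT A and 496 in WT B. The part of these lists in the differences between the WT libraries was not tested. Tbx1 (1.50 and 1.43) and Tmem26 (0.292 and 0.224) were the pair in which the WT libraries were close.

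Tbx1 stood out in the S265D library. It reached 7.03 FPKM there, whereas WT A had 1.50, WT B 1.43, S265A 2.00 and S265D-H1120Y 0.769, and untransduced day 8 cells with ROS had 3.01. S265D was the highest of all 11 libraries, with about 312 fragments and a 95% Poisson interval of 6.26 to 7.84, and S265D-H1120Y was the lowest of the 5 transduced ones (0.532 to 1.10). S265D was 4.80 times the WT mean of 1.46 ± 0.0464 (SD, n = 2), 4.69 times WT A and 4.91 times WT B, and 3.52 times S265A. Adding H1120Y to S265D came with a 9.13-fold lower value. The counting intervals of S265D and of the other 4 transduced libraries do not overlap. The fitted differences in limma were 2.19 ± 0.39 for S265D against WT and -3.04 ± 0.44 for S265D-H1120Y against S265D (log2, SE), and neither passed adjustment over the 16402 genes tested (adjusted p = 1 for both). In that test 0 genes were called in either comparison, with 99 and 187 at an unadjusted p under 0.05. All 8 adipocyte markers were lower in S265D-H1120Y than in S265D, as were all 12 thermogenic genes and 4 of 6 preadipocyte markers, and their part in the Tbx1 values was not tested. The S265D and S265D-H1120Y cultures had no replicates, and a difference between cultures and a difference between forms of hJMJD1A cannot be told apart.

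**Figure D4:**
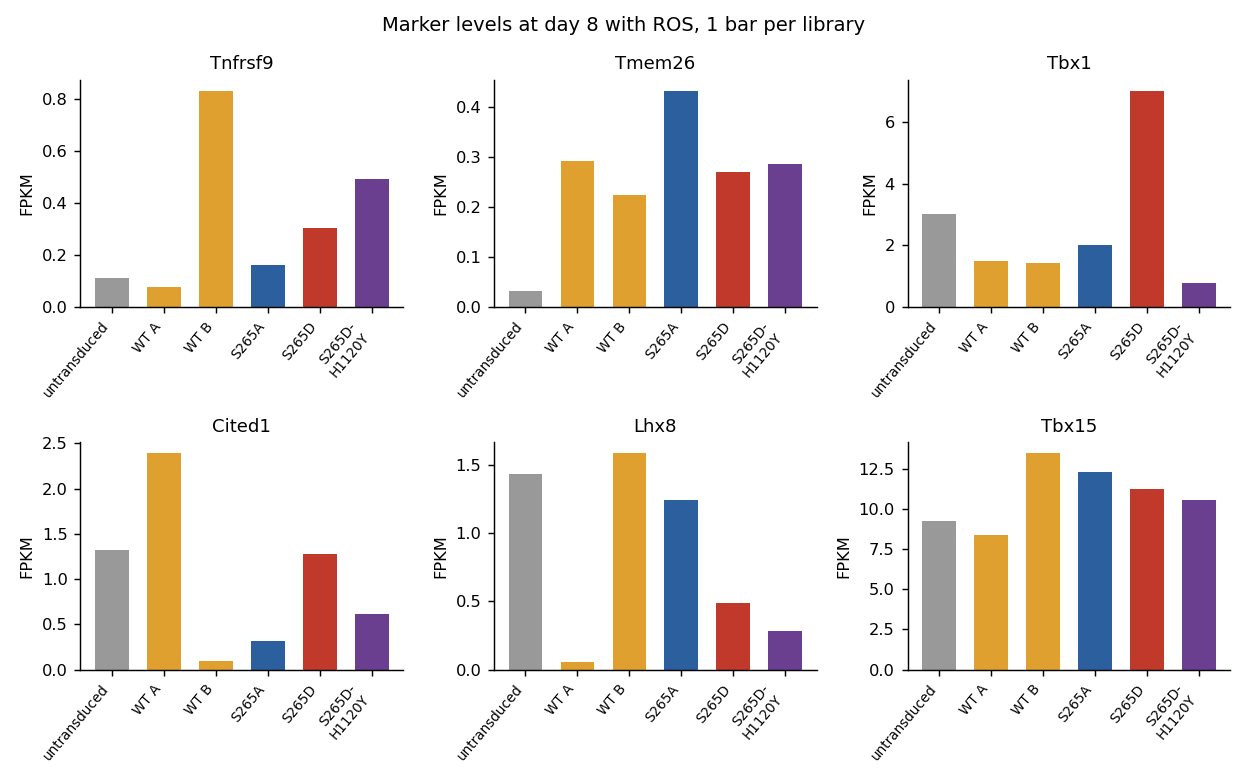
FPKM (y axis, linear from 0) of 6 markers in 6 libraries at day 8 with ROS, 1 bar for each library: untransduced cells (gray), WT A and WT B (yellow), S265A (blue), S265D (red) and S265D-H1120Y (purple). Tbx1 reaches 7.03 in S265D and 0.769 in S265D-H1120Y, and Tnfrsf9, Cited1 and Lhx8 differ more between the WT bars than Tbx1 and Tmem26 do.

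For S265A, Tbx1 had a ratio to WT A of 1.33 and to WT B of 1.40, with a fitted log2 difference of 0.42 ± 0.39 (SE, adjusted p = 1). By the 2-fold rule against the WT mean, 2 of the 8 genes were lower in S265A (6.40% of genes were lower and 3.49% higher), Tnfrsf9 (0.160 FPKM) and Cited1 (0.319). Both results turn on 1 WT library. Tnfrsf9 in S265A was 2.10 times WT A and 0.192 times WT B, and Cited1 was 0.134 times WT A and 3.25 times WT B. Against the WT mean S265D had 1 gene past 2-fold, Tbx1, higher (4.11% of genes were higher and 4.56% lower). S265D-H1120Y had 2 genes past 2-fold below S265D (8.66% lower and 5.62% higher), Tbx1 and Cited1, the latter at 0.614 against 1.28 FPKM. The Cited1 values rest on about 14 and 31 fragments. Their 95% Poisson intervals overlap (0.339 to 1.04 and 0.864 to 1.81 FPKM). A limma call was made for none of the genes in S265A against WT either (0 of 16402, 107 at an unadjusted p under 0.05).

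Tmem26 was higher in all 5 transduced libraries than in untransduced cells at the same day. It had 0.292 and 0.224 FPKM in WT A and WT B, 0.433 in S265A, 0.269 in S265D and 0.287 in S265D-H1120Y, against 0.0310 in the untransduced library. That last value is about 4 fragments (95% Poisson interval 0.00841 to 0.0790 FPKM), so ratios to it are poorly bounded. Transduction and any batch cannot be told apart in comparisons with untransduced cells. The WT libraries were 9.41 and 7.24 times the untransduced one (log2 fold change 1.44 ± 0.24, SE, adjusted p = 0.332, where 0 of 17075 genes were called and 2345 had an unadjusted p under 0.05). For WT against untransduced cells, 2 of the 8 genes were over 2-fold higher, Tmem26 and Tnfrsf9 (18.0% of genes), and 1 lower, Tbx1 (4.93%), with 1.46 against 3.01 FPKM. Only WT B carried the result for Tnfrsf9, at 7.48 times the untransduced library, where WT A was at 0.683. The forms of hJMJD1A spread over less than 2-fold for Tmem26, from 0.224 to 0.433.

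Lhx8 ranged widely among the transduced cultures, from 0.0545 FPKM in WT A through 0.286 in S265D-H1120Y, 0.487 in S265D and 1.25 in S265A to 1.59 in WT B. The value of WT A is about 2 fragments. Tbx15 was steadier, at 8.41 in WT A, 10.6 in S265D-H1120Y, 11.3 in S265D, 12.3 in S265A and 13.5 in WT B, which is the same order as for Lhx8. Both genes lie on chromosome 3, and they were correlated over the 9 differentiated libraries (Pearson r = 0.85, Spearman rho = 0.90 on log2(FPKM + 0.1)), a description over libraries that share medium and depth differences.

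The genes nearest to each marker over the 11 libraries were found by Pearson r on log2(FPKM + 0.1) among 13615 genes at 1 FPKM or more in some library. For Tbx15 they were Gli3 (r = 0.99), Igsf3 (0.98) and Setdb1 (0.98), and for Lhx8 Lrrc40 (0.96), Arnt (0.96) and 1110001A16Rik (0.95). For Tnfrsf9 they were S100a3 (0.98), Ahnak2 (0.98) and Sh3bgrl3 (0.98), where r within the 9 differentiated libraries was 0.92, 0.92 and 0.90. Cited1 was nearest to Nhlrc1 (0.97), Lhx2 (0.95) and Ung (0.95). Tbx1 was nearest to Mmd2 (0.93), Cyp2b10 (0.91) and BC005764 (0.91). Of the 6 genes nearest to Tbx15 and Lhx8, 4 lie on chromosome 3 themselves, as do 5.03% of the genes searched, whereas 1 of the 9 nearest to the other 3 markers shares its marker's chromosome.

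That observation led to a comparison by chromosome, made after these values were seen. Over genes at 1 FPKM or more in every library, the median log2 difference of WT B from WT A, relative to all genes, was 0.61 for the 502 genes of chromosome 3, 0.36 for chromosome 14, 0.33 for chromosome 4 and -0.46 for chromosome 18. For the day 0 pair the medians of the 20 chromosomes lay between -0.08 and 0.03. Between the arms at day 8 they lay between -0.11 and 0.04. Tbx15 differed between WT B and WT A by 0.65 relative to all genes, close to the median of its chromosome, and Lhx8 by 3.42, far above it. For Tnfrsf9 on chromosome 4 the difference was 2.38 against a chromosome median of 0.33, and for Cited1 on chromosome X it was -3.68 against 0.07. S265D and WT B also differed by chromosome, from -0.36 on chromosome 3 to 0.22 on chromosome 18. For Tbx1 on chromosome 16, the difference between the WT libraries was -0.09 where that of its chromosome was -0.32. Whether these chromosome-wide differences have a part in the marker values was not tested.

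**Figure D5:**
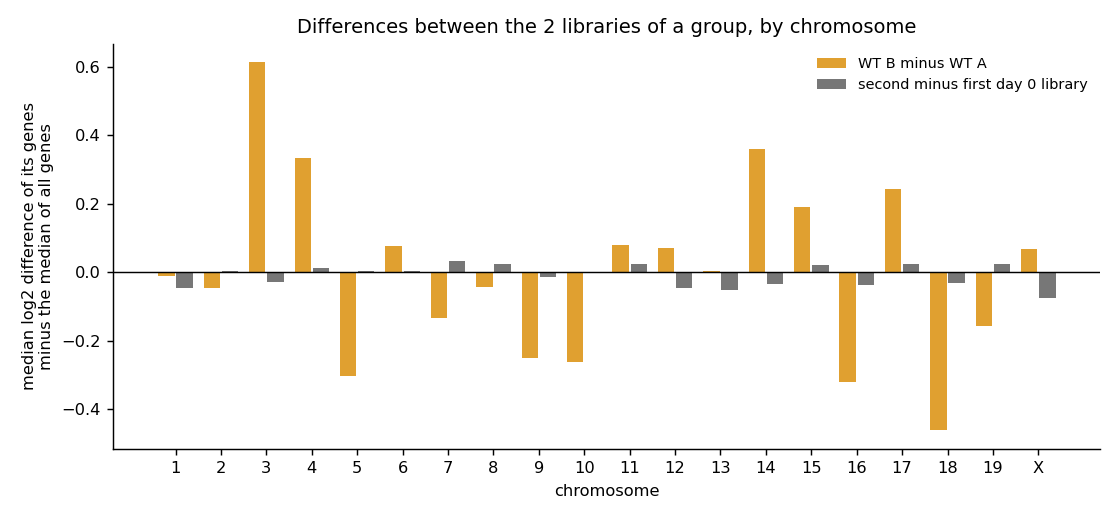
Median log2 difference of the genes of each chromosome minus the median of all genes (y axis) by chromosome (x axis), for WT B minus WT A (yellow) and for the second minus the first day 0 library (gray). The WT pair spans -0.46 to 0.61, with chromosome 3, which holds Lhx8 and Tbx15, highest, and the day 0 pair -0.08 to 0.03.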

How the data were processed

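RNA of im-scWATs was sequenced on an Illumina HiSeq as 11 TruSeq libraries. The authors aligned reads with BWA to UCSC transcripts and the mm9 genome, realigned the rest locally, and gave strand-specific values for each transcript. The deposited tables hold FPKM, its log10 and log2, and mapped bases, a signal of summed coverage over exons. Versions are not given in the sources used here. FPKM of sense rows of the representative transcript of 29955 symbols were used here, and the deposited log10 and log2 columns were not, since they code 0 by a fixed number. Mapped bases are not whole counts, so no count test was run.

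Ratios came from FPKM with at least 0.1 in 1 compared group. limma 3.58.1 (R 4.3.3) was fitted to log2(FPKM + 0.1) over all genes with FPKM of at least 0.1 in 1 library of the fit, separately for the 6 untransduced and the 5 transduced libraries (all 11 for WT against untransduced cells), with Benjamini-Hochberg adjustment and a threshold of 0.05. A fold change on that scale understates changes of low genes. The procedure was tested on simulated data in which all genes and libraries had the same spread, taken from the day 0 pair. Changes were put only into genes expressed above the level of most markers. That test cannot show whether single differentiated libraries vary like the day 0 pair. Groups came from the sample labels. Intervals and floors cover counting error only, assume 198 bases for 1 fragment, and treat fragments as independent. Genes of a context list were named by the 2-fold rule and an FPKM of at least 1, at most 4 a list; Cited2, Cited4, En1, Pax3, Myf5, Pax7, Zic2, Zic4, Zic5 and single genes of the marker lists were named after their values were seen. The 3 genes nearest to each marker were taken for markers with a mean of at least 0.5 FPKM. Alternatives were the pseudocount, the minimum, the transcript, median-ratio scaling, the libraries in the fit and leaving out each replicate. The members and gene lists were chosen with earlier results of these data known.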

Additional observations from a re-analysis of the deposited data

Results flagged for a closer look

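For Cited1 and Tnfrsf9 the measured difference between the ROS arms was not the same at both days. Cited1 had a lower FPKM with ROS at day 4 (0.524 against 0.730) and a higher one at day 8 (1.33 against 0.814), and the day 8 difference minus the day 4 difference was 1.05 ± 0.11 on the log2 scale (SE, limma, adjusted p = 0.256). Tnfrsf9 had 0.1671 with and 0.1669 without ROS at day 4, which is nearly equal, and 0.111 against 0.563 at day 8, which gives -1.65 ± 0.26 (SE, limma, adjusted p = 0.266). Neither passed, and each arm had 1 library a day. By fragments, exact 95% intervals of the Cited1 ratios were 0.559 to 3.33 at day 4 (without over with ROS) and 0.899 to 3.18 at day 8 (with over without). Both intervals include a ratio of 1.

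Antisense reads, which enter none of the comparisons, were found over Tbx15. They reached 994 mapped bases in the second day 0 library, above the floor of 594, and 100 in S265D, the lowest library, and made up 0.0501% to 0.474% of the bases over the gene.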

How the results depend on the processing

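No paired analysis was possible because the groups compared share at most 1 replicate number, given in accession order, and have 1 library on at least 1 side. Taking only the day 0 library filed under the same ROS arm is among the fits without 1 day 0 library. In limma, the log2 differences of the 6 tested markers from day 0 and between the ROS arms kept their direction in every setting run, and reversals were in comparisons with WT. With all 11 libraries in the fit the calls over all genes were 1723 (7747 in the report's fit) for day 8 with ROS, 407 (5694) for day 8 without, 442 (5690) for day 4 with and 251 (4778) for day 4 without, and without either day 0 library 0 to 0. Only among genes reaching 1 FPKM did limma call genes for ROS at day 8, 895 of them (163 higher and 732 lower). Without a minimum, 4 calls on markers were lost, with adjusted p between 0.0503 and 0.0696. The count of the 8 markers past 2-fold changed with a pseudocount of 1 and with a minimum of 1 FPKM: from 2 to 0 and 0 for ROS at day 8, from 5 to 3 and 3 for day 8 without ROS against day 0, to 1 and 2 for day 4 with ROS, to 2 and 2 for day 4 without, from 2 to 0 and 1 for S265A against WT, and from 3 to 0 and 1 for WT against untransduced cells. For S265D-H1120Y against S265D a pseudocount of 1 gave 1 in place of 2. For S265D against WT no minimum gave 2 in place of 1, and leaving out 1 WT library 3 to 4.

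Log2 fold changes also turned with the WT library left out. The ranges for S265A against WT were -1.84 to 0.56 for Tnfrsf9, -2.57 to 1.08 for Cited1, -0.33 to 3.12 for Lhx8 and -0.13 to 0.54 for Tbx15. For S265D against WT they were -1.21 to 1.20 for Tnfrsf9, -0.08 to 0.19 for Tmem26, -0.85 to 2.80 for Cited1, -1.52 to 1.93 for Lhx8 and -0.26 to 0.42 for Tbx15. For WT against untransduced cells they were -0.26 to 2.14 for Tnfrsf9, -2.85 to 0.80 for Cited1, -3.31 to 0.14 for Lhx8 and -0.13 to 0.54 for Tbx15. The S265D value of Tnfrsf9 (-0.01) became 0.22 with a pseudocount of 0.01 and 0.00 with rescaled FPKM, and that of Lhx8 (0.20) became -0.15 with a pseudocount of 1. The cause was not tested. Depth limits Cited1, Epsti1, Zic1, Tmem26, Tnfrsf9 and Lhx8, with 0 to 4 fragments in some libraries.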
